A study of Mus musculus with 25 samples.

Results

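The cytosolic ribosomal proteins are the protein parts of the ribosomes outside mitochondria. Their genes were taken by symbol from probe sets annotated to 1 gene only. The symbols begin with Rpl or Rps and a digit, or are Rplp0 or Rpsa, and the S6 kinases (Rps6k) were left out. This gave 35 of the 8252 genes with such a probe set. They came from 49 probe sets, and each of the 10 genes with several was represented by the one with the highest mean over all arrays. Another 39 probe sets, annotated to a ribosomal protein gene together with other genes, were not named and served as a comparison.

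A ribosome has a small subunit, which reads the mRNA (the Rps proteins and Rpsa), and a large subunit, which joins the amino acids (the Rpl proteins). Each subunit is put together in the nucleolus from ribosomal RNA and about equal amounts of each protein. The mRNAs of most ribosomal proteins start with a run of pyrimidines, the terminal oligopyrimidine tract, through which mTOR signalling controls their translation. In skeletal muscle, ribosome content is known to rise with growth and regeneration.

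The tibialis anterior, a fast muscle at the front of the shin, was taken whole for RNA. The mice were C57BL/6J females aged 2 to 3 months, and no other allele is named. Control muscles had no treatment. The first injury was 150 eccentric contractions in vivo, in which the working muscle is stretched. The second was freezing, with a steel probe of 6 mm at the temperature of dry ice held on for 10 s. Muscles were collected 6 hours, 1 day, 3 days or 7 days after injury. The 25 arrays formed 9 groups of 3 arrays, except that freeze at 7 days and contraction at 1 day had 2. The labels do not say whether samples shared a mouse, and p-values then measure only the spread between these samples, which may be technical. Values are MAS5 signals, and changes are differences of log2(signal + 13) ± SE, a scale that understates the change of dim probe sets. Signals were not compared between genes, because probe sets differ in brightness.

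There were 2 arrays that stood apart. Sample 436, labelled as freeze at 3 days, had a correlation of 0.801 to 0.802 with the other arrays of its group and of 0.947 to 0.952 with the controls. Its summed signal of 14 macrophage marker genes was 485, against 726 to 1002 in the controls, and that of 16 genes of mature muscle fibres was 247483, against 154506 to 245820. Control 3 was the lowest control for 19 of the 19 brighter ribosomal protein genes described next, and the lowest of all 25 arrays for 18 of them. Counts of ribosomal protein genes called against control are given with all arrays and without each of these 2, and those of other gene lists with all arrays and, where they differ in the groups described, without sample 436.

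The 35 genes fell into brighter and dimmer probe sets. The 19 brighter ones had a mean log2 level of 9.51 to 13.46 and a median SD between replicates of 0.22. The 16 dimmer ones lay at 4.52 to 8.17, with a median SD of 0.39. The boundary at 9 was set in the gap between Rps27 and Rps19 after the values were seen. All 19 brighter and 11 of the 16 dimmer genes passed the filter on low signals, which left out Rps15, Rps20, Rpl39, Rpl39l and Rps27l.

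Brighter ribosomal protein genes were mostly higher in the later injured groups. Their mean log2 difference from the control mean was 0.13, 0.17 and -0.30 on the 3 control arrays. It was 0.77, 0.40 and 0.84 after contraction at 3 days, and 0.68, 0.33 and 0.75 after freeze at 1 day. After freeze at 3 days it was 0.45 on sample 436 and 0.83 and 0.79 on the others, and after freeze at 7 days it was 0.69 and 0.65. Each of these 11 arrays lay above all 3 controls. Contraction at 7 days gave 0.24, 0.57 and 0.44, also above the controls. At 6 hours of either injury and 1 day after contraction the range was 0.07 to 0.31, which overlapped the controls. In whole muscle, more or fewer cells of a type and more or less RNA per cell cannot be told apart.

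**Figure D1:**
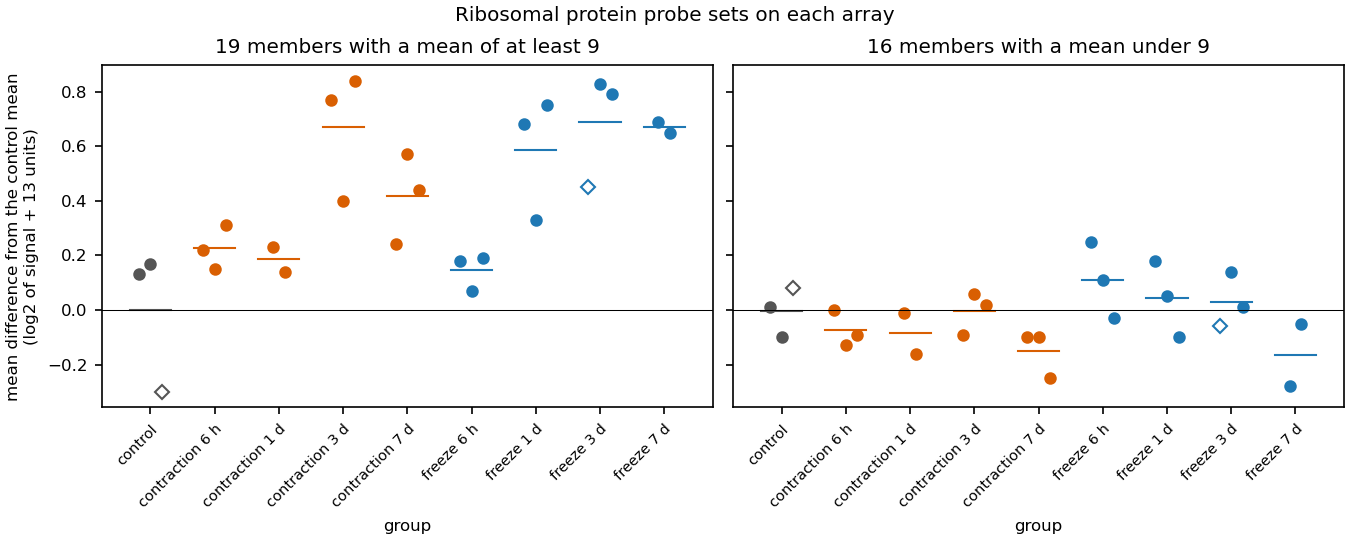
Mean difference from the control mean, in log2 of signal + 13 units, over the 19 brighter (left) and 16 dimmer (right) ribosomal protein genes on each of 25 arrays. Points are arrays, bars are group means, and open diamonds are control 3 and sample 436. The brighter genes reach 0.84 after contraction at 3 days and 0.83 after freeze at 3 days, while the dimmer genes stay between -0.28 and 0.25.

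As a share of the summed signal of the array, the 35 genes made up 1.52% to 2.08% in the controls, with control 3 the lowest. The share was 2.70% to 3.64% after contraction at 3 days and 2.56% to 3.24% after freeze at 1 day. It was 2.41% to 3.42% after freeze at 3 days and 3.03% to 3.07% after freeze at 7 days.

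At 6 hours, and 1 and 7 days after contraction, few of these genes passed the test, which was limma with Benjamini-Hochberg adjustment over 9506 probe sets and a threshold of 0.05. At 6 hours after contraction 1 of 30 genes was called, where 1.87% of all probe sets were. It was Rpl37a, a large subunit protein, with signals of 1276, 1315 and 1051 in the controls and 2348, 2320.2 and 1723 after injury. All 3 injured arrays lay above the controls, and the rise was 0.80 ± 0.19, 1.74-fold, with a limma adjusted p of 0.0290. Without control 3 the adjusted p was 0.145 and none of the 30 was called, against 1.44% of all probe sets, and leaving out control 1, control 2, sample 417 or sample 431 also ended the call. Without sample 436 Rpl37a was again the gene called, against 3.36%. In the later groups Rpl37a had changes of 0.21 to 0.41, none called.

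None of the 30 genes was called after contraction at 1 day, where 1.79% of all probe sets were called, or at 7 days, where 0.537% were. By limma at an unadjusted p under 0.05, 0 were higher and 1 lower at 1 day, and 8 higher and 2 lower at 7 days. The median change of the 30 genes at 7 days was 0.42, against -0.05 over all probe sets tested, and 0.24 without control 3. At 6 hours after freeze 1 gene was called, Rpl35a, which was lower, where 4.85% of all probe sets were called. Without sample 436, Rpl35a was also called lower after contraction at 1 and 7 days, against 4.33% and 3.03% of all probe sets. At 6 hours after freeze Rps4l was then called higher beside Rpl35a, against 11.4%. Without control 3 none of the 30 was called in these 3 groups, against 1.47% and 0.242% after contraction at 1 and 7 days and 3.15% at 6 hours after freeze.

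Contraction at 3 days raised 7 of the 30 genes and lowered 1. Among all probe sets, 5.67% were called higher and 2.58% lower. The risers were Rpl13a of the large subunit and 6 genes of the small subunit, Rps19, Rps3a1, Rps10, Rps28, Rps18 and Rpsa. The gene that fell was Rpl35a. The median change was 0.60 for the 30 genes and 0.66 for the 19 brighter ones, against -0.06 over all probe sets tested, and 15 of the 19 had every injured array above every control. That held for 17.0% of all probe sets tested, and for 237 of the 1014 with a mean of at least 9. Without sample 436 the fit called 18 higher and 1 lower, against 13.1% and 9.69% of all probe sets. Without control 3 none of the 30 was called by limma, against 3.22% of all probe sets, although 14 were higher and 1 lower at an unadjusted p under 0.05. The median change was then 0.48. Without both arrays 8 were called higher and 1 lower, against 19.9% of all probe sets in either direction. Leaving out sample 435 or sample 467 left 1 call each.

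Freeze at 1 day raised 7 genes and lowered 1, against 9.15% and 5.06% of all probe sets. They were Rpl13a, Rps4l, Rpl6, Rps18, Rpl8, Rps3a1 and Rps10, and the gene that fell was again Rpl35a. The median change was 0.50 for the 30 genes and 0.62 for the 19 brighter ones, against -0.07 over all probe sets. Without sample 436 there were 17 rises and 1 fall, against 14.8% and 12%. Without control 3 only Rps4l was still called higher and Rpl35a lower, against 9.36% of all probe sets, and without both arrays 7 were higher and 1 lower, against 24.7%. Leaving out sample 464 left 1 call, and leaving out control 1 or sample 422 left 3 each.

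Freeze at 3 days gave the most calls, 17 higher and 3 lower of 30, against 9.68% and 8.18% of all probe sets. Of the 17, 13 were brighter genes, with changes up to 1.20. The genes that fell, Rpl32, Rps29 and Rpl35a, were all dim. The median change was 0.66 for the 30 genes and 0.73 for the brighter ones, against -0.09 over all probe sets. Without sample 436, 18 were called higher and 4 lower, against 21.6% and 20.8%, and the median of the brighter genes was 0.86. Without control 3 Rpl13a was still called higher and Rps29 and Rpl32 lower, against 7.35% of all probe sets. Without both arrays 16 were higher and 4 lower, against 39.8%. No call remained when sample 450 or sample 468 was left out, and 8 remained without control 1.

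Freeze at 7 days raised Rps4l, Rps19 and Rps7 and lowered Rpl35a and Rps29, against 3.65% higher and 1.64% lower of all probe sets. The median change of the brighter genes was 0.68, against -0.06 over all probe sets, and 18 of the 19 had both injured arrays above every control. With 2 injured arrays that held for 23.1% of all probe sets, and for 280 of the 1014 with a mean of at least 9. Without sample 436, 14 genes were called higher and 4 lower, against 11.7% and 7.83%. Without control 3 none was called by limma, against 1.58% of all probe sets, with 11 higher and 4 lower at an unadjusted p under 0.05. Without both arrays 7 were higher and 3 lower, against 15.9%. Leaving out sample 440 or sample 454 ended all 5 calls, leaving out control 1 left 1, and leaving out sample 450 gave 8. The 8 comparisons with control share the same 3 control arrays, so their counts are not independent of each other.

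**Figure D2:**
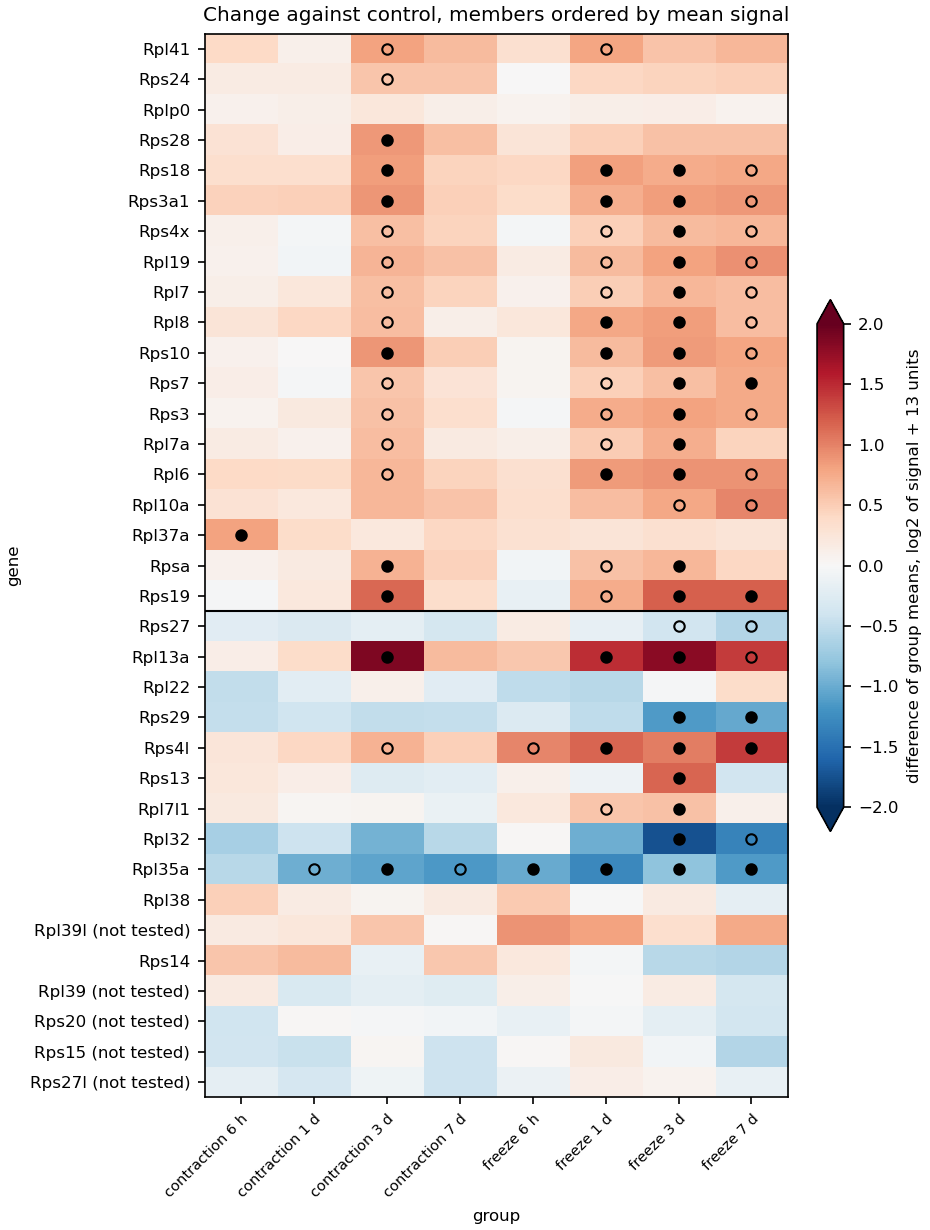
Difference of the group means of log2(signal + 13) from control (colour, limits at -2 and 2) for the 35 genes (rows, brightest at the top, line between the 19 brighter and 16 dimmer) in 8 injured groups (columns). Filled circles mark calls with all arrays and open circles calls made only without sample 436. The brighter genes show rises from 1 day after freeze and 3 days after contraction, and Rplp0 has no call.

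In the small subunit, 10 genes were bright and all 10 had a positive change after contraction at 3 days, from 0.55 to 1.15. Of these, 6 were called, where 5.67% of all probe sets were called higher. Freeze at 3 days gave changes of 0.44 to 1.20, with 8 of the 10 called, against 9.68% of all probe sets called higher. Rps19, whose human gene is often mutated in Diamond-Blackfan anaemia, gave signals of 581, 552 and 394 in the controls. After contraction at 3 days they were 799, 1174 and 1541, all above the controls, a rise of 1.15 ± 0.30 (2.22-fold, limma adjusted p = 0.0235). After freeze at 3 days the signals were 621 on sample 436 and 1727 and 1500.1 on the other arrays, and all 3 lay above the controls.

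The Rps19 rise at that time was 1.20 ± 0.30 with all arrays and 1.66 ± 0.24 without sample 436, with limma adjusted p of 0.0155 and 6.41e-06. At 7 days after freeze the signals were 1452 and 948, again above the controls, with a rise of 1.20 ± 0.33 (adjusted p = 0.0391). Rps19 was not called 1 day after freeze, where signals of 761, 929.8 and 862 gave 0.74 ± 0.30 (adjusted p = 0.0992). Without control 3 these changes were 0.98 after contraction at 3 days, 1.03 after freeze at 3 days and 1.03 after freeze at 7 days, with limma adjusted p of 0.0950, 0.0556 and 0.129, and none was called.

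Rps10, a small subunit protein, gave 2261, 2278 and 1472 in the controls. Contraction at 3 days gave 4263, 2914.5 and 3870.3, and freeze at 3 days gave 2955 on sample 436 and 4071 and 3720.3 on the others. All of these exceeded every control. The rises were 0.88 ± 0.21 and 0.85 ± 0.21, 1.85-fold and 1.80-fold, with limma adjusted p of 0.0161 and 0.0159. Without control 3 they were 0.68 and 0.64, with limma adjusted p of 0.0799 and 0.0627, and without both arrays 0.68 and 0.77, with 0.00742 and 0.00226. Freeze at 6 hours, with signals of 2027, 2050.5 and 2016, lay between control 3 and the other controls.

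Rps3a1, a protein of the small subunit's platform, gave 2932, 3350.4 and 1679 in the controls and 4400, 4167 and 5709 after contraction at 3 days. Its rise was 0.89 ± 0.24 (limma adjusted p = 0.0306). Without control 3 it was 0.59, with an adjusted p of 0.138. Rps18, at the head of the small subunit, gave 3551, 3299 and 2273 in the controls and 5763, 4175 and 6159.5 after freeze at 1 day. The rise was 0.82 ± 0.24 (1.77-fold, limma adjusted p = 0.0253), and 0.63 without control 3, with an adjusted p of 0.114. Rpsa, which is both a small subunit protein and the laminin receptor precursor, gave 1000, 1075 and 879.7 in the controls and 1992, 1208 and 1724 after contraction at 3 days. It rose by 0.70 ± 0.20 there and by 0.67 ± 0.20 after freeze at 3 days, with limma adjusted p of 0.0372 and 0.0295, or 0.113 and 0.0866 without control 3. Rps7, a small subunit protein that also binds the p53 regulator Mdm2, rose at 7 days after freeze by 0.75 ± 0.22 (limma adjusted p = 0.0484, or 0.121 without control 3). Its signals were 2122, 2124 and 1842 in the controls and 3582 and 3276 in that group, which did not overlap.

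In the large subunit, 9 genes were bright. None of the 9 was called after contraction at 3 days, where 7 of them were higher at an unadjusted p under 0.05, and 5 of 9 were called after freeze at 3 days, against the same 5.67% and 9.68%. Changes in these groups were 0.21 to 0.80 and 0.14 to 0.90. Whether the subunits differed was not tested, and these counts of both subunits are with all arrays. Without sample 436, 18 of the 30 genes were called higher after contraction at 3 days, brighter genes of the large subunit among them. Without control 3 no brighter gene of either subunit was called in these groups. Rpl6, a large subunit protein, gave 1602, 1726 and 1412 in the controls and 2948, 2368 and 3271 after freeze at 1 day. All 3 lay above the controls, and the rise was 0.84 ± 0.25 (1.80-fold, limma adjusted p = 0.0284), or 0.77 without control 3, with an adjusted p of 0.0860.

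Rpl13a, a large subunit protein also known as part of the interferon-gamma dependent silencing complex in monocytes, had the largest rise of the 30 genes in the comparisons with control, in the fit with all arrays. Its probe set was dim, with control signals of 77.5, 61.3 and 67.2. Contraction at 3 days gave 281.5, 236 and 352, all above the controls, and a rise of 1.88 ± 0.45 (3.67-fold, limma adjusted p = 0.0161). Freeze at 1 day gave 174, 213 and 268, also above the controls, and a rise of 1.49 ± 0.45 (2.80-fold, adjusted p = 0.0325).

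After freeze at 3 days Rpl13a gave 67.4 on sample 436, within the control range, and 656 and 409.5 on the other arrays. The change was 1.80 ± 0.45 with all arrays and 2.71 ± 0.25 without sample 436, 3.48-fold and 6.53-fold. At 7 days after freeze the signals of 182 and 224 lay above the controls, but the change of 1.40 ± 0.51 was not called (limma adjusted p = 0.0999) until sample 436 was left out (3.13e-04). Without control 3 the changes differed by at most 0.01 from those with it, and the adjusted p were 0.0527 after contraction at 3 days, 0.0750 after freeze at 1 day and 0.0450 after freeze at 3 days.

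Rplp0, the large subunit protein that anchors the ribosomal stalk, showed no called change. It gave 7309.7, 8367 and 5522 in the controls, 7526, 7507.5 and 9528 after contraction at 3 days, and 8314, 6992 and 7812 after freeze at 3 days. The groups overlapped at every time, and changes against control were 0.07 to 0.22. The limma F test for any change gave an adjusted p of 0.997. Rplp0 is often used as a reference gene, and its signal here is relative to arrays scaled to a common level.

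**Figure D3:**
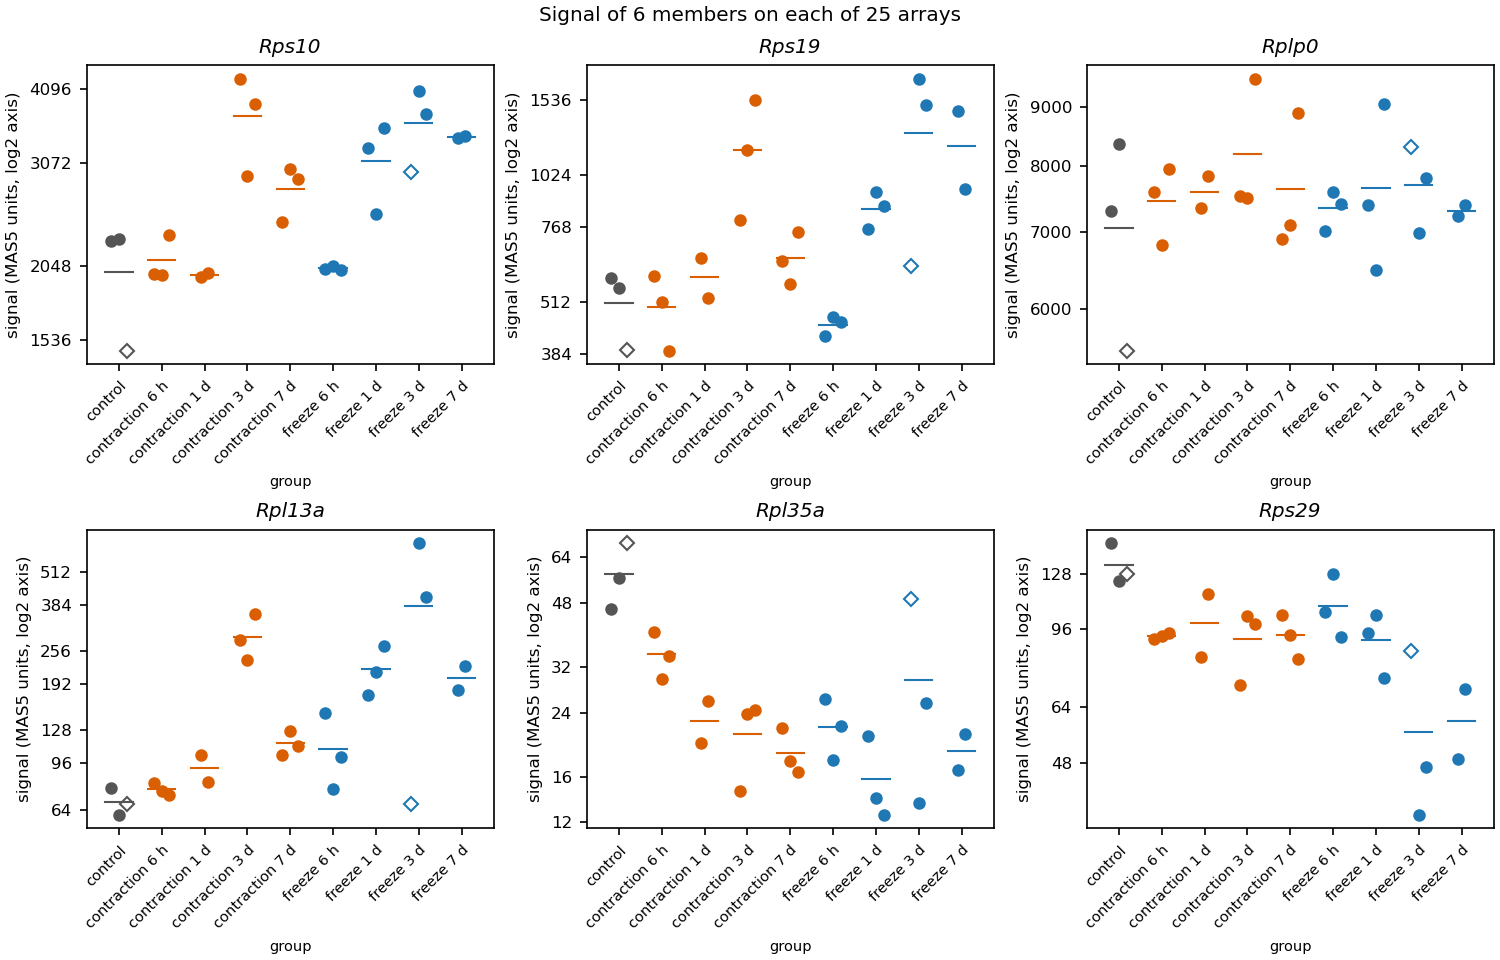
Signal in MAS5 units (log2 axis) of 6 ribosomal protein genes on each of 25 arrays by group. Points are arrays, bars are the arithmetic means of the groups, and open diamonds are control 3 and sample 436. Rps10, Rps19 and Rpl13a are higher after contraction at 3 days, Rplp0 overlaps throughout, and Rpl35a and Rps29 are lower after freeze at 7 days than in any control.

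Falls were seen only among the dim probe sets, in the comparisons with control and all arrays. Rpl35a, a large subunit protein mutated in some cases of Diamond-Blackfan anaemia, gave 46.2, 56.3 and 70.1 in the controls, with control 3 the highest. After freeze at 1 day it gave 20.7, 14.0 and 12.6, all below the controls, with a fitted change of -1.29 and a limma adjusted p of 0.00354. These signals lie under the filter level, the 40th percentile of each array (33.4 to 42.5 units), so the size of the change has only a bound. Against that level on the same arrays, Rpl35a was at least 1.34-fold lower, in signal + 13. Such a bound stands in place of a fitted size for other genes where every array of a group lay under the filter level. Those genes passed the filter only through other groups, so they were tested because of arrays on which they were high. Rpl35a was called lower in 5 of the 8 groups, and in 4 of them no injured array passed the filter, with bounds of 1.30-fold to 1.38-fold.

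Sample 436 gave 49.3 for Rpl35a, within the control range, while the other freeze arrays at 3 days gave 13.6 and 25.6. Contraction at 7 days gave 21.8, 17.7 and 16.5, below every control and under the filter level, and the test missed the threshold (limma adjusted p = 0.0588). Without control 3 only the comparison at 1 day after freeze was called, with an adjusted p of 0.0208. Rpl35a passed the filter on 6 arrays, of which 3 were the controls, 2 were of contraction at 6 hours and 1 was sample 436. It was therefore tested because of the arrays on which it was high. Leaving it out, limma called 0 genes lower after contraction at 3 days, 0 after freeze at 6 hours and 1 day, 2 at 3 days and 1 at 7 days.

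Rps29, a small zinc-binding protein of the small subunit, gave 150.1, 123 and 128 in the controls. After freeze at 3 days it gave 85.5 on sample 436 and 36.6 and 46.9 on the others, all below the controls. The fall was -1.14 ± 0.23 (0.454-fold, limma adjusted p = 0.00984), and -1.42 ± 0.22 without sample 436. At 7 days after freeze the signals were 48.9 and 70.5, with a change of -1.02 ± 0.26 (adjusted p = 0.0265, or 0.0674 without control 3). Rpl32, a large subunit protein, gave 56.4, 52.6 and 60.2 in the controls and 8.2, 10.2 and 5.3 after freeze at 3 days, with sample 436 first. It was at least 1.41-fold lower by the same bound (limma adjusted p = 0.0148). It passed the filter on 11 arrays, none of them from that group, so the same limit holds for it.

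Rps13, a dim gene of the small subunit, rose after freeze at 3 days. It gave 66.9, 59.2 and 62.2 in the controls and 185.5, 151 and 139.8 in that group, all above them, and sample 436 was the highest. The rise was 1.17 ± 0.34 (2.25-fold, limma adjusted p = 0.0250), or 1.06 ± 0.37 without sample 436 and 1.17 without control 3, with an adjusted p of 0.0606. Its changes in the other 7 groups were not called.

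There were 4 genes that are paralogs of another ribosomal protein gene. Rps4l, a copy of Rps4x, gave 33.0, 57.7 and 49.4 in the controls, 104, 117 and 137 after freeze at 1 day, and 128 and 159 after freeze at 7 days. Both freeze groups lay above the controls, with rises of 1.17 ± 0.32 and 1.40 ± 0.36 and limma adjusted p of 0.0207 and 0.0287, or 0.0443 and 0.0695 without control 3. At 3 days after freeze it gave 44.1 on sample 436, within the control range, and 178 and 142 on the others, a rise of 1.02 ± 0.32. Rps4x, which encodes the small subunit protein itself, gave 3136, 3522 and 2346 in the controls and 4230.2, 4752 and 4892 after freeze at 3 days, a rise of 0.64 ± 0.20 (limma adjusted p = 0.0350, or 0.131 without control 3).

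Probes for near-identical copies can take up each other's RNA, so Rps4l and Rps4x are uncertain as separate readings. A second Rps4l probe set had changes of -0.37 at 1 day and -0.53 at 3 days after freeze, neither called. For Rps4x, 3 dimmer probe sets had changes of -0.96 to -1.05 at 3 days after freeze, none called, opposite in sign to the brightest. Rpl7l1, a paralog of Rpl7, rose after freeze at 3 days by 0.59 ± 0.20 (limma adjusted p = 0.0450), from 55.1, 44.1 and 40 to 70.9, 76.6 and 80.3. Rpl7 itself rose there by 0.67 ± 0.19 (adjusted p = 0.0238). Neither was called without control 3, at 0.122 and 0.0996. Rps27l and Rpl39l did not pass the filter, with signals of 4.3 to 27.6 and 3.2 to 39.5. The parent of the first, Rps27, was called in no comparison with all arrays, and that of the second, Rpl39, was not tested.

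Other genes with several probe sets also differed among them. For Rps28, a small protein at the mRNA exit of the small subunit, the brightest gave 0.59 after freeze at 3 days (limma adjusted p = 0.121). The next gave 1.39 (0.0146) and the dimmest -0.93 (0.0366). The 36 tested probe sets that are annotated to a ribosomal protein gene and other genes had a median change of 0.61 after contraction at 3 days, 0.52 after freeze at 1 day, 0.65 after freeze at 3 days and 0.62 after freeze at 7 days. Of these 36, 8, 8, 15 and 4 were called higher in these groups, and none lower. Among all probe sets 5.67%, 9.15%, 9.68% and 3.65% were called higher there.

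Sequences around the annotated start were looked at because the pyrimidine run at the start of the mRNA defines how this family is translated. Windows of 250 bases before and 50 after a start (RefSeq, GRCm38.p6) were found for 28 of the 35 genes. A run of at least 8 C or T bases covering the start, or ending at the base before it or beginning at the base after it, was in a window of 8 of the 28 genes, and in 21.6% of their 37 windows against 5.97% of all 32851 windows. The 8 genes include some that rose, such as Rps10, Rps18 and Rpl7a, and some that did not, such as Rps27 and Rpl35a. These 5 were chosen after their values were seen. Each sequence runs from 40 bases before the annotated start to 20 bases from it on, on the strand of the gene, with the pyrimidine run in capitals.
Rps10 (chr17:27635225-27635284, minus strand): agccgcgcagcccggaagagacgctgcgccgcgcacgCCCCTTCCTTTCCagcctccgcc
Rps18 (chr17:33955646-33955705, minus strand): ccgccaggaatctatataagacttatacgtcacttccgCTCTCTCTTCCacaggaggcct
Rpl7a (chr2:26910767-26910826, plus strand): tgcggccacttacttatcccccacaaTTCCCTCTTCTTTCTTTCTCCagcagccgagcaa
Rps27 (chr3:90213629-90213688, minus strand): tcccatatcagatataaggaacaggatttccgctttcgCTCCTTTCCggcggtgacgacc
Rpl35a (chr16:33056442-33056501, plus strand): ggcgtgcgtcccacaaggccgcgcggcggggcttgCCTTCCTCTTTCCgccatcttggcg
The run was 13 bases long in Rps10, 11 in Rps18, 21 in Rpl7a, 9 in Rps27 and 13 in Rpl35a, so genes with and without a call as risers carried it.

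Among the brighter genes 5 of 17 with a window had a run over the start, and among the dimmer ones 3 of 11. Annotated starts can lie some bases away from the start used in muscle. Within 50 bases of the start, such a run was in 67.6% of the 37 windows against 37.8% of all windows. The letters CCGGAAG, a motif of ETS factors such as GABP, were on either strand in 12 of the 37 windows, 32.4% against 8.86% of all, and GCCATNTT, the motif of YY1, in 10 of the 37, 27.0% against 6.05%. The motifs were searched over 300 bases. GCCATNTT lies in the Rpl35a sequence printed, after the run, and CCGGAAG in that of Rps10, before it. A match is a description of the letters and does not show binding.

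Freeze and contraction were compared directly at each time. None of the 30 genes was called in limma at 6 hours, 1 day, 3 days or 7 days, where 0.305%, 1.45%, 0.389% and 0.368% of all probe sets were called. At an unadjusted p under 0.05 the higher and lower counts were 2 and 1, 7 and 0, 2 and 1, and 4 and 2. The median difference was -0.04, 0.38, 0.04 and 0.23. At 1 day 14 of the 19 brighter genes had every freeze array above every contraction array, with a median of 0.43. That held for 20.1% of all probe sets, and for 217 of the 1014 with a mean of at least 9. Without sample 436 the direct test called 2 genes at 1 day, 4 at 3 days and 2 at 7 days, against 10.1%, 16.9% and 7.27% of all probe sets.

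At 1 day these were Rpl13a, with signals of 103 and 81.7 after contraction and 174, 213 and 268 after freeze, and Rps10, with 1966 and 1994 after contraction and 3249, 2509 and 3518 after freeze. In both, the injuries did not overlap. The F test for any change against control called 16 of the 30 genes, against 26.2% of all probe sets, and 22 without sample 436, against 49.3%. Leaving out 1 array gave 6, without sample 440, to 22. The F test of the injury by time interaction called none, against 0.589% of all probe sets, with 1 at an unadjusted p under 0.05.

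The machinery that builds ribosomes was followed with 37 tested genes of nucleolar assembly and RNA polymerase I. Of these, 17 rose and none fell after freeze at 1 day, 9 rose and none fell after contraction at 3 days, and 11 rose and 1 fell after freeze at 3 days. The rises were 45.95%, 24.32% and 29.73%, where 9.15%, 5.67% and 9.68% of all probe sets were called higher. At 6 hours after freeze 4 rose, at 1 day after contraction 1 rose, and in the other 3 groups none was called. Without sample 436 the counts were 20 at freeze 1 day, 14 at contraction 3 days, 18 with 3 lower at freeze 3 days, 8 with 1 lower at freeze 6 hours, 3 at contraction 1 day and 7 at freeze 7 days. At 6 hours after contraction 1 was then lower. The rises at freeze 1 day, contraction 3 days, freeze 3 days and freeze 7 days were then 54.05%, 37.84%, 48.65% and 18.92%. Of all probe sets, 14.8%, 13.1%, 21.6% and 11.7% were called higher there. With all arrays the median change was 0.60 after freeze at 1 day and 0.16 at 7 days, when the brighter ribosomal protein genes were at 0.62 and 0.68. Control 3, the lowest control for each of the brighter genes, is among the controls in these values. Nhp2, a protein of the small nucleolar particles that modify ribosomal RNA, rose by 1.97 ± 0.34 after freeze at 1 day (limma adjusted p = 7.04e-04). Bysl, needed for the small subunit, fell after freeze at 3 days by 0.92 ± 0.31 (adjusted p = 0.0468).

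Of 12 translation factors and other genes with pyrimidine-run mRNAs, 1 rose after contraction at 3 days, and 3, 2 and 1 rose after freeze at 1, 3 and 7 days. These were 8.33%, 25%, 16.7% and 8.33%, against 5.67%, 9.15%, 9.68% and 3.65% of all probe sets. Without sample 436 the counts were 3 after contraction at 3 days and 3, 3 and 2 after freeze, with 2 more at 6 hours after freeze and 1 at 7 days after contraction. In the 4 groups named first, the shares were then 25%, 25%, 25% and 16.7%, against 13.1%, 14.8%, 21.6% and 11.7%. With so few genes, and at 3 days after freeze above all, these lie near the shares of all probe sets. The elongation factor Eef1a1 had the largest rise, 2.59 ± 0.67 at 7 days after freeze (limma adjusted p = 0.0297), from a mean control signal of 1573. Eef1b2, its exchange factor, fell by 1.31 ± 0.45 after freeze at 3 days (adjusted p = 0.0473). The median change of this list was -0.10 to 0.04 in all 8 groups. Of 60 mitochondrial ribosomal protein genes none was called higher in any group, with all arrays or without sample 436. After freeze at 1 day 5 were lower, 8.33% where 5.06% of all probe sets were, Mrpl34 of the large subunit the most, by -1.01 ± 0.27 (limma adjusted p = 0.0170). Without sample 436, 11 were lower there, 18.3% against 12%. After freeze at 3 days 1 was lower, 1.67% against 8.18%, or 25 without sample 436, 41.7% against 20.8%. With all arrays these shares are near or under those of all probe sets. Only without sample 436 were 5 lower after contraction at 3 days and 3 after freeze at 7 days, 8.33% and 5%, against 9.69% and 7.83%. At 6 hours after freeze 5 and at 1 day after contraction 1 were then lower. These were 8.33% and 1.67%, against 11.4% and 4.33% in either direction.

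**Figure D4:**
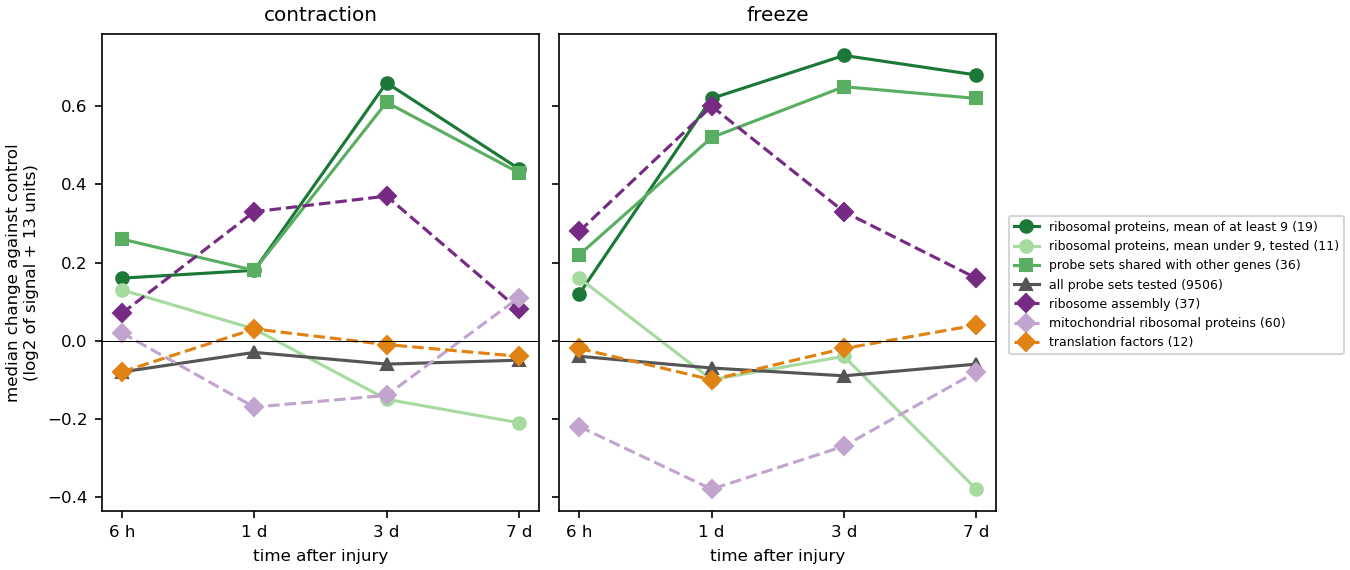
Median change against control, in log2 of signal + 13 units, by time after contraction (left) and freeze (right) for ribosomal protein genes and related groups, with the number of probe sets or genes in parentheses. Solid lines are ribosomal protein groups and all probe sets, and dashed lines are related lists. After freeze the assembly genes are at 0.60 at 1 day and 0.16 at 7 days, while the brighter ribosomal protein genes stay at 0.62 to 0.73 from 1 day on. All values are with all arrays, including control 3, the lowest control for each of the brighter genes.

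Of 13 genes of growth signalling, Myc, the transcription factor that drives ribosome production, was at least 4.72-fold higher at 6 hours after freeze (limma adjusted p = 6.29e-06), when no ribosomal protein gene was called higher with all arrays. Myc was also called higher at 6 hours and 1 day after contraction and at 1 day after freeze, by at least 2.19-fold, 2.00-fold and 2.07-fold. Its mean control signal was 9.73, under the filter level. Eif4ebp2, an inhibitor of translation that mTOR acts on, fell by 1.37 ± 0.35 at 7 days after freeze (adjusted p = 0.0265). In all groups together this list had at most 2 rises and 2 falls in a comparison with control, or 4 and 5 without sample 436. At 1 day after freeze the 2 rises were 15.4% against 9.15% of all probe sets, and at 3 days the 2 falls were 15.4% against 8.18%. Without sample 436 the 4 and 5, both at 3 days after freeze, were 30.8% and 38.5%, against 21.6% and 20.8%.

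Markers of other cell types moved in the groups where the ribosomal protein genes did, and in others, and their part in the result was not tested. All 14 macrophage markers were tested, and 10 rose after contraction at 3 days, 9 after freeze at 1 day, 12 at 3 days and 8 at 7 days. These were 71.4%, 64.3%, 85.7% and 57.1%, against 5.67%, 9.15%, 9.68% and 3.65% of all probe sets. Lgals3 was at least 31.2-fold higher after contraction at 3 days (limma adjusted p = 0.00282). Lgals3, like Stmn1, Myh3 and S100a9 below and Myc above, lay under the filter level on every control. So did other counted markers, such as Tyrobp, Cd53 and Cdk1. These genes were tested because of injured arrays on which they were high, and their calls share the limit given for Rpl35a. Without sample 436 the macrophage counts were 13, 14, 14 and 11, with 8 after contraction at 7 days. The first of these were 92.9%, 100%, 100% and 78.6%, against 13.1%, 14.8%, 21.6% and 11.7%. At 6 hours after freeze 3 of the 14 rose, or 7 without sample 436, where no ribosomal protein gene was called higher with all arrays. That was 21.4%, against 4.85% of all probe sets in either direction. Without sample 436, 5 macrophage markers also rose at 1 day and 1 at 6 hours after contraction. Their summed signal was 726 to 1002 in the controls, 10213 to 16186 after contraction at 3 days, 6861 to 9605 after freeze at 1 day, 485 to 34351 at 3 days and 9554 to 10259 at 7 days. At 6 hours after freeze it was 2815 to 4878. Of 15 tested genes of dividing cells 7, 6 and 11 rose after contraction at 3 days and freeze at 1 and 3 days, and Stmn1 was at least 7.68-fold higher in the first (limma adjusted p = 0.0155). The shares were 46.7%, 40% and 73.3%, against 5.67%, 9.15% and 9.68% of all probe sets. Without sample 436 the counts of these genes were 13, 10 and 14, and 9 after freeze at 7 days. The shares were then 86.7%, 66.7%, 93.3% and 60%, against 13.1%, 14.8%, 21.6% and 11.7%.

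Of 15 mature muscle fibre genes 1 fell after freeze at 1 day and 8 at 3 days, Pygm by 2.00 ± 0.55 (limma adjusted p = 0.0220). The falls were 6.67% and 53.3%, against 5.06% and 8.18% of all probe sets. None of the 15 was called after contraction at 3 days with all arrays, where their median change was -1.08. Without sample 436, 12 fell after contraction at 3 days, 10 after freeze at 1 day, 15 at 3 days and 2 at 7 days. These were 80%, 66.7%, 100% and 13.3%, against 9.69%, 12%, 20.8% and 7.83% of all probe sets called lower. The last rests on 2 genes. The summed signal of the fibre genes was 91552 to 120473 after contraction at 3 days, under the control range of 154506 to 245820.

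On sample 436 the summed macrophage markers were below the controls and the summed fibre markers above them. The mean difference of the 19 brighter ribosomal protein genes from the control mean was 0.45 on it, against -0.30 to 0.17 on the controls. Sample 436 also had the highest 18S ribosomal RNA signal of the arrays on all 3 probe sets, 349, 208 and 206, where the controls had 77.6 to 183, 31.8 to 57.4 and 7.4 to 51.1. Control 3 gave the lowest of the control values on each.

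Of the other lists, myogenic markers rose in 5 of 9 genes after contraction at 3 days and 6 of 9 after freeze at 7 days, where Myh3 was at least 22.7-fold higher (limma adjusted p = 1.74e-04). After freeze at 3 days 4 of 9 rose, and in each of the other injured groups 2 or 3 did. The shares in the named groups were 55.6%, 66.7% and 44.4%, against 5.67%, 3.65% and 9.68% of all probe sets called higher. Without sample 436 the counts there were 7, 8 and 7, or 77.8%, 88.9% and 77.8%, against 13.1%, 11.7% and 21.6%. Fibroblast markers rose in 6 of 8 genes after freeze at 7 days and in none after contraction at 3 days, or 8 and 6 without sample 436, with Postn at 5.51 ± 0.90 (adjusted p = 0.00147). The 6 with all arrays were 75%, against 3.65% of all probe sets. The 8 and 6 without sample 436 were 100% and 75%, against 11.7% and 13.1%. After freeze at 1 and 3 days 1 of 8 rose each, 12.5% against 9.15% and 9.68%. Without sample 436 the counts were 2 and 7, or 25% and 87.5%, against 14.8% and 21.6%. Neutrophil markers rose in 3 of 6 genes at 6 hours after freeze, with S100a9 at least 22.3-fold higher (limma adjusted p = 4.58e-06), when the median change of the ribosomal protein genes was 0.14. The 3 were 50%, against 4.85% of all probe sets in either direction. At 1 day after freeze 2 of 6 neutrophil markers rose, 33.3% against 9.15%. Without sample 436, 1 of 6 also fell at 1 day and 1 at 3 days after freeze, 16.7% each, against 12% and 20.8%. Of 5 tested lymphocyte markers 2 fell after freeze at 1 day, or 3 without sample 436, Cd4 by 1.46 ± 0.39 (adjusted p = 0.0170). The 2 were 40%, against 5.06% of all probe sets, and the 3 without sample 436 were 60%, against 12%. At 7 days after freeze 1 lymphocyte marker fell, and without sample 436 another call, at 3 days, was also lower. Each was 20%, against 1.64% with all arrays at 7 days and 20.8% without sample 436 at 3 days. Of 7 endothelial markers 1 fell after contraction at 7 days, or 2 without sample 436, Tie1 by 1.08 ± 0.23 (adjusted p = 0.0258). The 1 was 14.3%, against 0.537% of all probe sets in either direction, and the 2 were 28.6%, against 3.03%. After freeze at 3 days 2 endothelial markers fell, 28.6% against 8.18% of all probe sets, or 3 without sample 436, 42.9% against 20.8%. Only without sample 436 did 2 fall after contraction at 3 days and 1 after freeze at 7 days, 28.6% and 14.3%, against 9.69% and 7.83%. None of 3 red cell markers was called in any comparison with control.

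The ratio of signal at the 3′ end to that at the 5′ end of the actin control probe sets, a sign of RNA quality, was 0.560 to 0.595 in the controls. It was 0.923 to 1.21 after contraction at 3 days, 1.01 to 1.31 after freeze at 1 day, 0.741 to 1.09 at 3 days and 0.776 to 0.808 at 7 days, all above the controls. That for Gapdh was 0.869 to 1.13 in the controls and 0.797 to 1.12 in these 4 groups. The actin ratio was also above the controls at 6 hours after freeze, 0.657 to 0.955, and at 1 day after contraction, 0.617 to 0.641. No ribosomal protein gene was called higher there with all arrays. At 6 hours and 7 days after contraction the actin ratio was 0.572 to 0.669 and 0.522 to 0.716, which overlapped the controls. The part of RNA quality in the result was not tested.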

How the data were processed

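The authors deposited MAS5 intensity signals, a linear value for each probe set. MAS5 is named in the submitters' processing notes, and its version is not given in the sources used here. Each array had been scaled to a common level, so changes are relative to the bulk of the array. Depth has no counterpart on arrays, and 2 or 3 arrays per group limit the precision.

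Probe sets were named through the platform's annotation, updated with RefSeq. Signals were taken to log2 after adding 13. To be tested, a probe set had to exceed its array's 40th percentile in 2 or more arrays, which left 9506. One linear model of 9 groups was fitted with limma 3.58.1 in R 4.3.3 (eBayes with trend), with two-sided p-values adjusted by Benjamini-Hochberg within each of 12 comparisons, and was tested on simulated data.

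The named genes were the 4 largest rises and falls called per comparison, Rplp0, Rpsa, the paralogs with their parents, and the largest rise and fall of each list. Genes named beyond these were chosen after their values were seen. The genes and lists were chosen with earlier results of these data known. Alternatives were other pseudocounts, normalizations, filters, fits and probe sets, and leaving out arrays. Promoter sequences are from RefSeq, GRCm38.p6.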

Additional observations from a re-analysis of the deposited data

Results flagged for a closer look

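Freeze differed from contraction in the direct limma test for 8 pairs of gene and time, in the fit without sample 436. With all arrays none of them was called. Of all probe sets, 10.1%, 16.9% and 7.27% were called in the fit without sample 436 at 1, 3 and 7 days. The shares among the 30 genes were no higher than these, so the calls do not set these genes apart from the array. Each difference is freeze minus contraction in log2 of signal + 13, ± SE, with the limma adjusted p.

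At 1 day Rpl13a differed by 1.12 ± 0.25 (adjusted p = 0.00467) and Rps10 by 0.63 ± 0.20 (0.0489). At 3 days Rps13 differed by 1.32 ± 0.37 (0.0157), Rps4l by 0.85 ± 0.26 (0.0240), Rpl13a by 0.83 ± 0.25 (0.0228) and Rps29 by -0.92 ± 0.22 (0.00552). At 7 days Rps4l differed by 0.93 ± 0.26 (0.0286) and Rps19 by 0.85 ± 0.24 (0.0330). The differences at 3 days rest on the other 2 freeze arrays of that time.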

How the results depend on the processing

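Counts are of the 30 genes called in either direction, and each alternative is set against the count in the fit with all arrays. For most of these fits the share of all probe sets called was not counted. A higher or lower count therefore cannot be told apart from more or fewer calls over the whole array. With quantile normalization the counts were 0 for contraction at 6 hours, 16 for contraction at 3 days, 16 for freeze at 1 day and 10 for freeze at 7 days. With arrays centred on their median they were 4 for contraction at 3 days, 4 for freeze at 1 day and 10 for any change. In a fit of only the groups compared they were 0 and 4 for contraction at 6 hours and 3 days, 0, 0 and 9 for freeze at 6 hours, 3 days and 7 days, and 1 each for freeze minus contraction at 1 and 7 days. A pseudocount of 50 gave 1 for contraction at 7 days and 1 for freeze minus contraction at 3 days, a pseudocount of 1 gave 0 for freeze at 6 hours, and a fit without a trend gave 1 for contraction at 7 days. The median over a gene's probe sets gave 1 call and a median change of 0.26 for contraction at 7 days, and a median change of 0.44 for freeze at 7 days. It reversed Rps4x at 3 days after freeze, at -0.98 with a limma adjusted p of 0.141.

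Alternatives chosen after seeing the data were the shared probe sets, with 0 calls for either injury at 6 hours and 9 for any change, and leaving out both sample 436 and control 3. The latter gave a median change of 0.24 for contraction at 7 days. Its counts were 2 and 10 for freeze at 6 hours and 7 days, and 4, 4 and 2 for freeze minus contraction at 1, 3 and 7 days. It kept 40 of 43 calls of single genes, all 43 were kept without sample 436, and 5 without control 3.

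Leaving out 1 array at a time gave 0 to 1 calls for contraction at 6 hours, 0 to 1 at 1 day, 0 to 19 at 3 days and 0 to 1 at 7 days, where the median change was 0.24 to 0.45. For freeze it gave 0 to 2, 1 to 18, 0 to 22 and 0 to 18 calls at 6 hours, 1, 3 and 7 days. Freeze minus contraction had 0 to 2, 0 to 4 and 0 to 2 calls at 1, 3 and 7 days, and any change 6 to 22. Adjacent sample numbers as a random block changed no call of a single gene, with an estimated correlation of -0.094. The labels do not say that samples were paired. A fit with 10 fixed pairs, 20 arrays, was chosen after seeing the data. Each pair was a contraction and a freeze array of adjacent number and the same time. In this fit limma called 0 of 30 genes for freeze minus contraction at each time. At an unadjusted p under 0.05 it gave 0, 4, 3 and 2 at 6 hours, 1, 3 and 7 days.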
